A study of Mus musculus with 47 samples.

Results

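The mitochondrial ribosome translates the 13 mRNAs of the mitochondrial genome, all of which encode subunits of the respiratory chain or ATP synthase. Its ribosomal RNAs come from mitochondrial DNA, but its proteins are encoded by nuclear genes, made in the cytosol and imported. Differentiating muscle raises its oxidative capacity, and tetracyclines such as doxycycline can inhibit translation on this ribosome. The genes for its proteins were therefore followed here through myogenic differentiation and doxycycline (dox) treatment. Members were all protein-coding mouse genes with a symbol of the form Mrpl or Mrps followed by a number: 83 genes matched the pattern, 5 annotated pseudogenes were dropped and 78 remained, of 45706 genes in the tables. Of these, 49 carry Mrpl (large subunit) symbols and 29 carry Mrps (small subunit) symbols. All 78 passed the filter on low counts in every comparison. The symbol does not always give the place of a protein: Mrps18a and Mrps30 are built into the large subunit, Mrpl58 descends from a peptidyl-tRNA hydrolase, and Mrps36 is now known as a subunit of the α-ketoglutarate dehydrogenase complex.

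The 47 poly(A) RNA-seq libraries fall into 16 groups of C2C12, a mouse myoblast line that fuses into myotubes when serum is withdrawn. The C2C12 iMyoD1 cells, a polyclonal line, carry endogenous MyoD1 and a dox-inducible Halo-MyoD1 transgene. They were sampled as whole cultures in growth medium (0 h) and after 24, 48 and 120 h of differentiation, each with dox or with vehicle only. At 120 h, the material was also split on a 40 µm filter into a myoblast-enriched and a myotube-enriched fraction. Cells with an inducible Cdh23 (iCdh23) or inducible Mcam (iMcam), both adhesion genes, were sampled at 48 h with or without dox. Dox lasted 24 h in the 0 and 24 h groups, 48 h in the 48 h groups and 120 h in the 120 h groups. Each group held 3 biological replicates, except the myoblast-enriched fraction with dox, which held 2 (numbers 2 and 3). Every dox group also carried an inducible transgene, and no library of cells without a transgene was given dox, so that an effect of dox itself and one of the induced gene cannot be told apart.

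Total counts per library ranged from 15066362 to 50950707 (median, 22837955). The members took 0.211 to 0.455% of each library, and the upper end was 1 library, replicate 1 of the myotube-enriched fraction with dox, which stood apart from replicates 2 and 3 (0.290 and 0.254%). Levels are given in CPM, counts normalised to library size with factors from the trimmed mean of M-values (TMM) over all 47 libraries. Myod1 did not mark the dox groups in these gene counts: at 0 h it lay at 181 to 202 CPM with dox and 174 to 185 without, and at 24 h it was lower with dox (109.5 to 123 against 136 to 142 CPM). In whole cultures it was also lower with dox at 48 h (294 to 319 against 384 to 391 CPM) and 120 h (80.9 to 96.7 against 228 to 302 CPM). Cdh23 lay at 343 to 444 CPM in the iCdh23 libraries labelled without dox and at 416 to 566 in those labelled with dox, against at most 57.3 CPM in any other library. Gene counts cannot separate a transgene from the endogenous gene. Mcam rose from 17.0 to 19.5 CPM to 69.2 to 74.5 CPM in the iMcam libraries. In iMyoD1 cells Mcam was also higher with dox, at 18.1 to 24.3 against 7.69 to 9.44 CPM at 0 h. At 24 h it lay at 15.5 to 17.6 CPM with dox and 2.31 to 3.03 CPM without. Groups are named by their labels throughout. Of 10 myotube markers, all were under 1 CPM at 0 h without dox and 5 still were at 24 h, whereas none was at 48 or 120 h without dox. Counts come from bulk RNA, in which fewer cells of a type and less RNA per cell cannot be told apart.

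Per unit of transcript length, the members differed in level by about an order of magnitude. In TPM, which divides counts by transcript length before scaling to the library, the mean over the 16 groups was highest for Mrps21 (202 TPM), Mrpl52 (187 TPM) and Mrpl33 (178 TPM), and lowest for Mrpl35 (9.58 TPM), Mrps35 (10.9 TPM) and Mrpl57 (13.5 TPM), with a median of 64.1 TPM. Mrps21 is the small-subunit homologue of bacterial S21, and Mrpl33 and Mrpl35 are homologues of L33 and L35. Among the groups, Mrps21 ranged from 127 ± 15.04 TPM (SD, n = 3) at 120 h without dox to 311 ± 31.5 TPM at 48 h with dox. Mrpl35 ranged from 5.80 ± 0.110 TPM in iCdh23 with dox to 18.1 ± 1.22 TPM at 24 h without dox. The order depended on the length used: with the longest transcript in place of all transcripts, the rank correlation was 0.70 over the 78 members and Mrpl33 moved from rank 3 to rank 44. Within a member, the level varied over the groups by a median of 3.11-fold between its highest and lowest group mean in CPM. Of the members, 42 had their highest group mean at 24 h without dox, while 25 had their lowest in iMcam with dox, 24 in iCdh23 with dox and 15 in whole cultures at 120 h with dox. The same count was not made over all genes, so these numbers do not show a trait particular to the members.

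**Figure D1:**
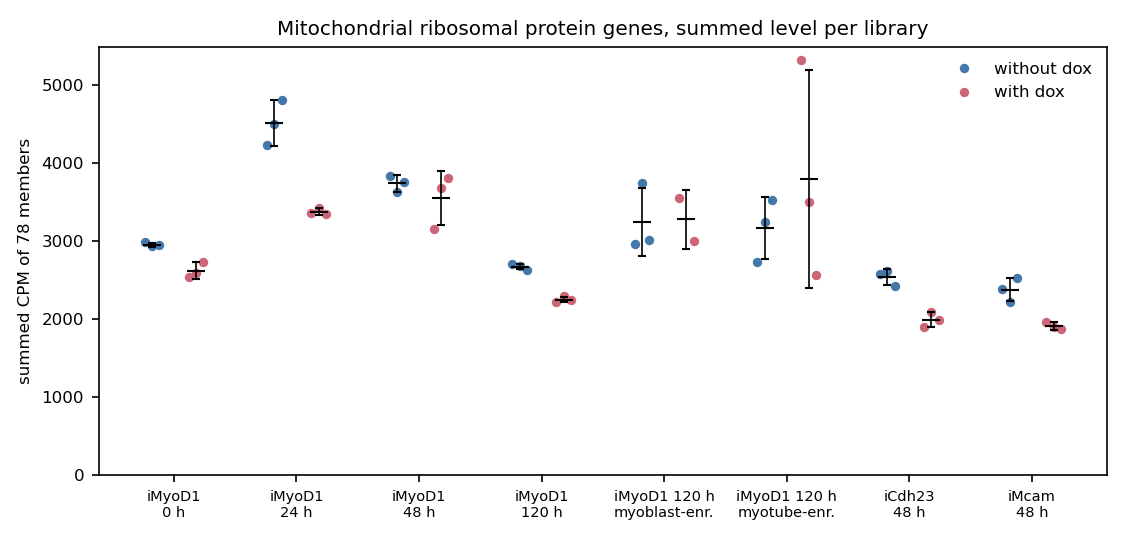
Summed level of the 78 members in each library (CPM, TMM-scaled over all libraries) for the 8 pairs of groups, without dox in blue and with dox in red, where each point is 1 library and the bars show the mean ± SD. The libraries at 24 h without dox sit highest among the whole cultures, between 4229 and 4816 CPM, and replicate 1 of the myotube-enriched fraction with dox stands at 5318 CPM.

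To ask how the genes behave in differentiation without dox, successive time points of iMyoD1 whole cultures were compared. From 0 to 24 h, 66 of 78 members rose and 2 fell (edgeR quasi-likelihood test, adjusted p < 0.05), with a median log2 fold change of 0.55. Of all 13632 genes tested, 37.3% rose and 37% fell, with a median of 0.01. The summed level went from 2955 ± 26.7 CPM to 4515 ± 294 CPM (SD, n = 3 each), and the groups did not overlap. Over the same step, markers of proliferating myoblasts summed to 2942 to 2975 CPM and then 988 to 1025 CPM. Myoblast markers went from 573 to 595 CPM to 355 to 380 CPM, and myotube markers from 1.70 to 2.81 CPM to 14.99 to 16.8 CPM. The part of cell composition in this step was not tested.

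The gene with the largest rise was Mrps18b, which encodes a small-subunit protein and is one of 3 vertebrate paralogs of bacterial S18. Its libraries at 0 h without dox held 29.6, 31.4 and 28.8 CPM and those at 24 h held 107, 106 and 119 CPM. All 3 libraries at 24 h thus lay more than 3-fold above those at 0 h, and the log2 fold change was 1.90 ± 0.07 (SE, adjusted p = 1.5e-11). Mrpl16, whose bacterial homologue lies near the tRNA binding sites of the large subunit, rose from 17.3 to 18.6 CPM to 49.7 to 60.1 CPM (log2 fold change 1.63 ± 0.08, adjusted p = 2.6e-10). Mrpl24, a protein near the polypeptide exit tunnel, rose by 1.28 ± 0.08 on the log2 scale (adjusted p = 2.7e-09). The exceptions were Mrpl54 (log2 fold change, −0.26 ± 0.06, adjusted p = 0.0016) and Mrpl42 (−0.21 ± 0.07, adjusted p = 0.017), both found in mitochondrial and not in bacterial ribosomes. Mrpl54 held 44.2 to 46.5 CPM at 0 h and 35.7 to 38.7 CPM at 24 h.

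From 24 to 48 h, 38 members fell and 16 rose, with a median of −0.15 against −0.02 over all 14017 genes, of which 38.4% fell and 38.4% rose. With scaling by the total count alone the split was 45 lower and 10 higher, beside 5948 lower and 4899 higher of all genes. Both time points come from different deposited tables and only the 48 h libraries carry a batch label, so time and table cannot be told apart in this step. Mrps18b again moved most: its 48 h libraries held 41.1, 38.3 and 39.9 CPM, back near the range of 0 h (log2 fold change, −1.42 ± 0.06, adjusted p = 2.1e-10). Mrpl19 fell from 74.1 to 79.2 CPM to 28.5 to 34.4 CPM (−1.18 ± 0.07, adjusted p = 7.6e-09) and Mrpl35 by 1.12 ± 0.09 on the log2 scale (adjusted p = 8.9e-08). Of the genes that rose, Mrps34, a small-subunit protein, went from 32.5 to 36.0 CPM to 49.98 to 60.6 CPM (0.79 ± 0.08, adjusted p = 7.1e-07). Mrps12, the decoding-site protein whose bacterial homologue is the target of streptomycin resistance mutations, rose by 0.74 ± 0.08 (adjusted p = 1.3e-06), and Mrpl36, the homologue of bacterial L36, rose by 0.47 ± 0.07 (adjusted p = 6e-05).

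From 48 to 120 h, 44 members fell and 6 rose, with a median of −0.37. Over all 13786 genes tested, 34.1% fell and 33% rose, and the median was −0.03. Mrpl34, the homologue of bacterial L34, held 27.2, 24.2 and 25.7 CPM at 48 h and 3.79, 3.44 and 2.77 CPM at 120 h, a log2 fold change of −2.91 ± 0.14 (adjusted p = 6.8e-07). Mrps12 went from 34.7 to 37.2 CPM to 4.93 to 8.51 CPM (−2.48 ± 0.18, adjusted p = 4.7e-06), and Mrpl52 from 67.2 to 79.3 CPM to 17.5 to 20.8 CPM (−1.93 ± 0.11, adjusted p = 1.3e-06). None of these 3 genes overlapped between the time points, but they were named for the largest called falls. The share of all genes without overlap is not given here. Mrpl1 (0.67 ± 0.14, adjusted p = 0.0025), Mrps18b (0.50 ± 0.09, adjusted p = 0.0009) and Mrpl50 (0.41 ± 0.13, adjusted p = 0.02) rose.

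Unfractionated 120 h cultures also lay below the 120 h fractions for many of these genes. Of the 44 members that fell from 48 to 120 h, 29 were lower in every unfractionated 120 h library without dox than in every library of both fractions without dox. The same held for 60.1% of all 4702 genes that fell in this step and for 24.1% of all genes tested, so that the members' count is near that of other genes that fell. Mrpl34 had a mean of 3.34 CPM in the unfractionated cultures, 21.9 CPM in the myoblast-enriched and 17.7 CPM in the myotube-enriched fraction. For Mrps12 the means were 6.30, 26.9 and 26.0 CPM, and for Mrpl52 18.9, 54.7 and 48.4 CPM. In the other direction, Mrps18b, Mrps17 and Mrpl1 (42.3 CPM against 26.6 and 27.6) were higher in every unfractionated library, as were 20.8% of all genes. No test was run on this difference, because fractionation and deposited table cannot be told apart.

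The 48 to 120 h change also followed base composition. Among the 26 members of highest GC content (52.6 to 60.6% over the longest protein-coding transcript), 21 fell, with a median log2 fold change of −1.07. Among the 26 of lowest GC content (39.6 to 47.4%), 9 fell, with a median of −0.18. Spearman's rho between GC content and the log2 fold change was −0.48 over the 78 members and −0.43 over all 12349 genes with a transcript sequence, which share the same 6 libraries. Transcript length had a rho of 0.34 over the members and 0.44 over all genes. Members are short: their median longest transcript is 1328 bases, against 3172 bases for genes tested at 0 h, with a like GC content (50.01 and 50.3%). In the 0 to 24 h step, rho with GC content was −0.26 over the members, and 22, 23 and 21 of 26 members rose in the groups of low, middle and high GC content. For the dox effects in iMyoD1 whole cultures, rho with GC content over the members was 0.15 at 0 h, 0.30 at 24 h, 0.40 at 48 h and −0.13 at 120 h. Over all genes it was 0.175, 0.26, 0.26 and −0.17 in this order. In iCdh23 it was 0.29 over the members and 0.16 over all genes, and in iMcam 0.24 and 0.16. The part of base composition in any of these changes was not tested.

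**Figure D2:**
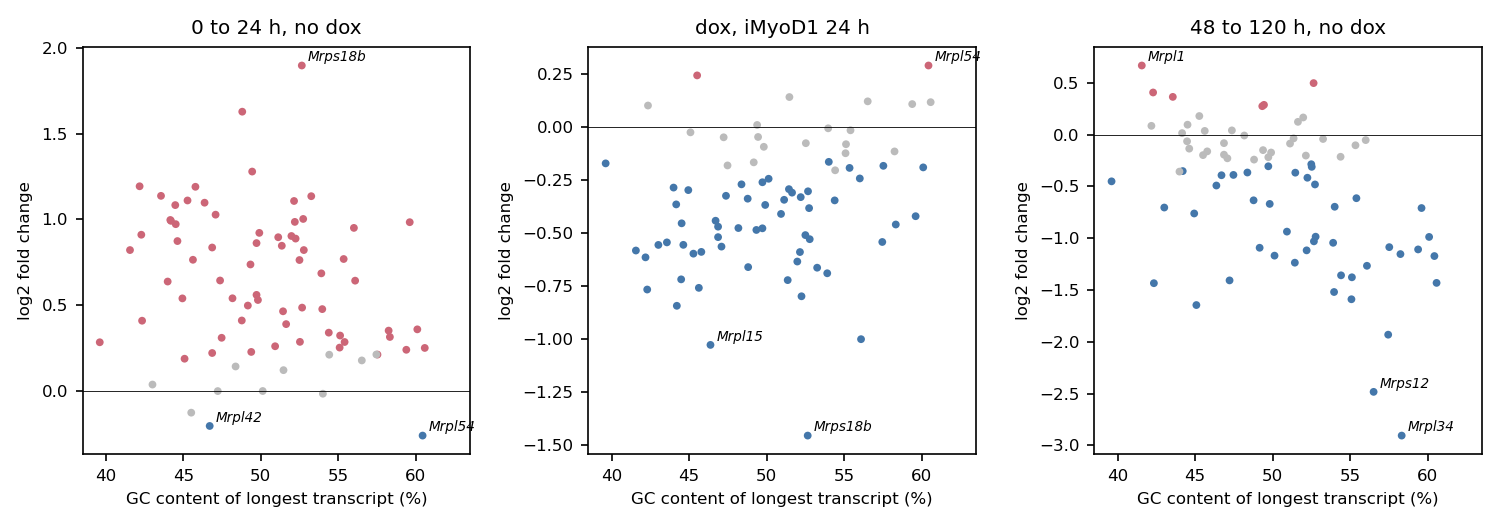
Log2 fold change of each member against the GC content of its longest protein-coding transcript (percent) for 3 comparisons, with members that rose in red, those that fell in blue and the rest in grey (adjusted p < 0.05). The largest falls from 48 to 120 h, such as Mrpl34 and Mrps12, sit at high GC content, while Mrps18b, at 52.6%, is the extreme of the other panels.

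With dox for the first 24 h of differentiation, 57 of 78 members were lower and 2 were higher, with a median of −0.34 against 0.00 for all 14078 genes tested, of which 31.7% were lower and 31.1% higher. With the total count as the only scaling, the split was 34 lower and 16 higher, and the median of all genes shifted to 0.26. This scaling moves all genes alike, which turned the sign of 8 of the 59 called members and by construction leaves the gap between the members and all genes (−0.34) as it was. The summed level was 3356, 3426 and 3354 CPM with dox and 4229, 4501 and 4816 CPM without, with no overlap.

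Mrps18b led the decrease. It held 39.8, 39.3 and 39.5 CPM with dox against 107, 106 and 119 CPM without, so that the dox libraries sat close together and far below the others (log2 fold change, −1.46 ± 0.06, adjusted p = 1.8e-09). Mrpl12, the L7/L12 protein of the stalk that recruits translation factors, held 62.5, 63.6 and 60.5 CPM with dox against 121, 120 and 139 CPM (−1.001 ± 0.06, adjusted p = 5.6e-08). Mrpl15, a large-subunit core protein, held 41.0, 43.6 and 42.2 CPM against 82.4, 85.7 and 95.3 CPM (−1.03 ± 0.06, adjusted p = 4.3e-08). Only Mrpl54, a stalk-base protein, and Mrpl48, a central protuberance protein, were higher, and with all 16 groups in 1 fit neither call held and the split was 34 lower and 0 higher. Over all genes, that fit called 2441 lower and 2341 higher, against 4462 and 4382 in the main fit. Mrpl54 held 45.1, 46.4 and 43.9 CPM with dox and 38.7, 35.7 and 38.4 CPM without (0.29 ± 0.06, adjusted p = 0.00072). Mrpl48 held 33.4, 32.5 and 32.3 CPM against 28.2, 27.4 and 29.0 CPM (0.24 ± 0.05, adjusted p = 0.002), but an exon of Mrpl48 overlaps Rab6a on the other strand, a gene at 120 to 201 CPM in the group means, and reads of both cannot be told apart if the library keeps no strand. The comparison of 0 with 24 h shares the 24 h libraries without dox with this one, as does that of 24 with 48 h.

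The start regions of the genes that stand out are shown so that a reader can see the letters around them. Each sequence covers 250 bases before to 50 after the RefSeq start nearest the most abundant transcript, in GRCm38.p6, read 5′ to 3′ on the gene's own strand. Capitals mark a match to an ETS core (CCGGAAG, or CTTCCGG on the other strand) or to an NRF1 element (GCGC, any base, then TGCGC), motifs chosen after the values were seen.
Mrps18b: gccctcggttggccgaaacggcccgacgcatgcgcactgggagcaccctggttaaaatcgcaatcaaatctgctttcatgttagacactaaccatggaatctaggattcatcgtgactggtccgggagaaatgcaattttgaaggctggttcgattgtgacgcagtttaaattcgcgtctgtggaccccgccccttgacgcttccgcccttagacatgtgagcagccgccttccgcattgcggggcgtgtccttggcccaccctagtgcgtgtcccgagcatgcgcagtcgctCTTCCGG
Mrpl12: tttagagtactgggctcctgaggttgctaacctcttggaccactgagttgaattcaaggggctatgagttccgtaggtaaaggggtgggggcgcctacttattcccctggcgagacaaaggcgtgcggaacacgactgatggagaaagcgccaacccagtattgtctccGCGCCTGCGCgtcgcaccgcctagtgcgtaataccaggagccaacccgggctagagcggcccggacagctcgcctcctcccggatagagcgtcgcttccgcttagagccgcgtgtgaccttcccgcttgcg
Mrpl3: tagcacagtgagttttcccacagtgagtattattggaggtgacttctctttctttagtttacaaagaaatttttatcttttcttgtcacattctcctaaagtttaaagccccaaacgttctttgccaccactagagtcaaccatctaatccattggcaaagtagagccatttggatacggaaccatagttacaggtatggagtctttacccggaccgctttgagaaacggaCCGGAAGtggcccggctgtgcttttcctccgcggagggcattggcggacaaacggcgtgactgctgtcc
Mrpl48: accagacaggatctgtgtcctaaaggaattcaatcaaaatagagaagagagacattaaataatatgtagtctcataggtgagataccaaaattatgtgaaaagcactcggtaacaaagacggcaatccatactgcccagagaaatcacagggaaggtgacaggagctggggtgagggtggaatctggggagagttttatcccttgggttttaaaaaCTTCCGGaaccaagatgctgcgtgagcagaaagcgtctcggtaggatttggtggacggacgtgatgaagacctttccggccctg
The windows are chr17:35916391-35916690 (minus strand), chr11:120484387-120484686 (plus), chr9:105053018-105053317 (plus) and chr7:100583081-100583380 (minus). The match began 44 bases after the start in Mrps18b, and 81, 19 and 34 bases before it in Mrpl12, Mrpl3 and Mrpl48. Mrps18b spans chr17:35910379-35916389, Mrpl12 chr11:120484613-120489065, Mrpl3 chr9:105053239-105079888 and Mrpl48 chr7:100545751-100608301. The RefSeq and GENCODE starts lay 51, 24, 33 and 28 bases apart in this order. The window of Mrps18b thus ends just upstream of its GENCODE gene, and that of Mrpl48 lies inside its gene, at the start of its most abundant transcript.

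NRF1 and the ETS factor GABP are known regulators of nuclear genes for mitochondrial proteins. Over the 69 members with a RefSeq promoter entry, both strands were searched for 7 motifs, and the same was done for 16315 protein-coding promoters of equal length. The ETS core was in 25 members (36.2%) and in 12.7% of all promoters, and the NRF1 element in 13 members (18.8%) and in 7.0% of all. AAGATGG, a core of YY1 elements, was in 13 members (18.8%) and in 6.5% of all. For the E-box CAGCTG, which MyoD1 can bind, the shares were 15.9% of members (11) and 15.3% of all promoters. CACGTG was in 5 members (7.2%) and 8.1% of all, TATAAA in 4 members (5.8%) and 12.7% of all, and TGATGNAA, an ATF4 element, in 0 members and 3.5% of all. These are matches of letters in a 300-base window and say nothing of binding. The 16315 promoters were not limited to genes that passed the filter on low counts, as all members did. Whether the shares differ for that reason was not tested. Mrpl13, Mrpl15, Mrpl19, Mrpl38, Mrpl4, Mrpl54, Mrps28, Mrps34 and Mrps35 had no entry.

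**Figure D3:**
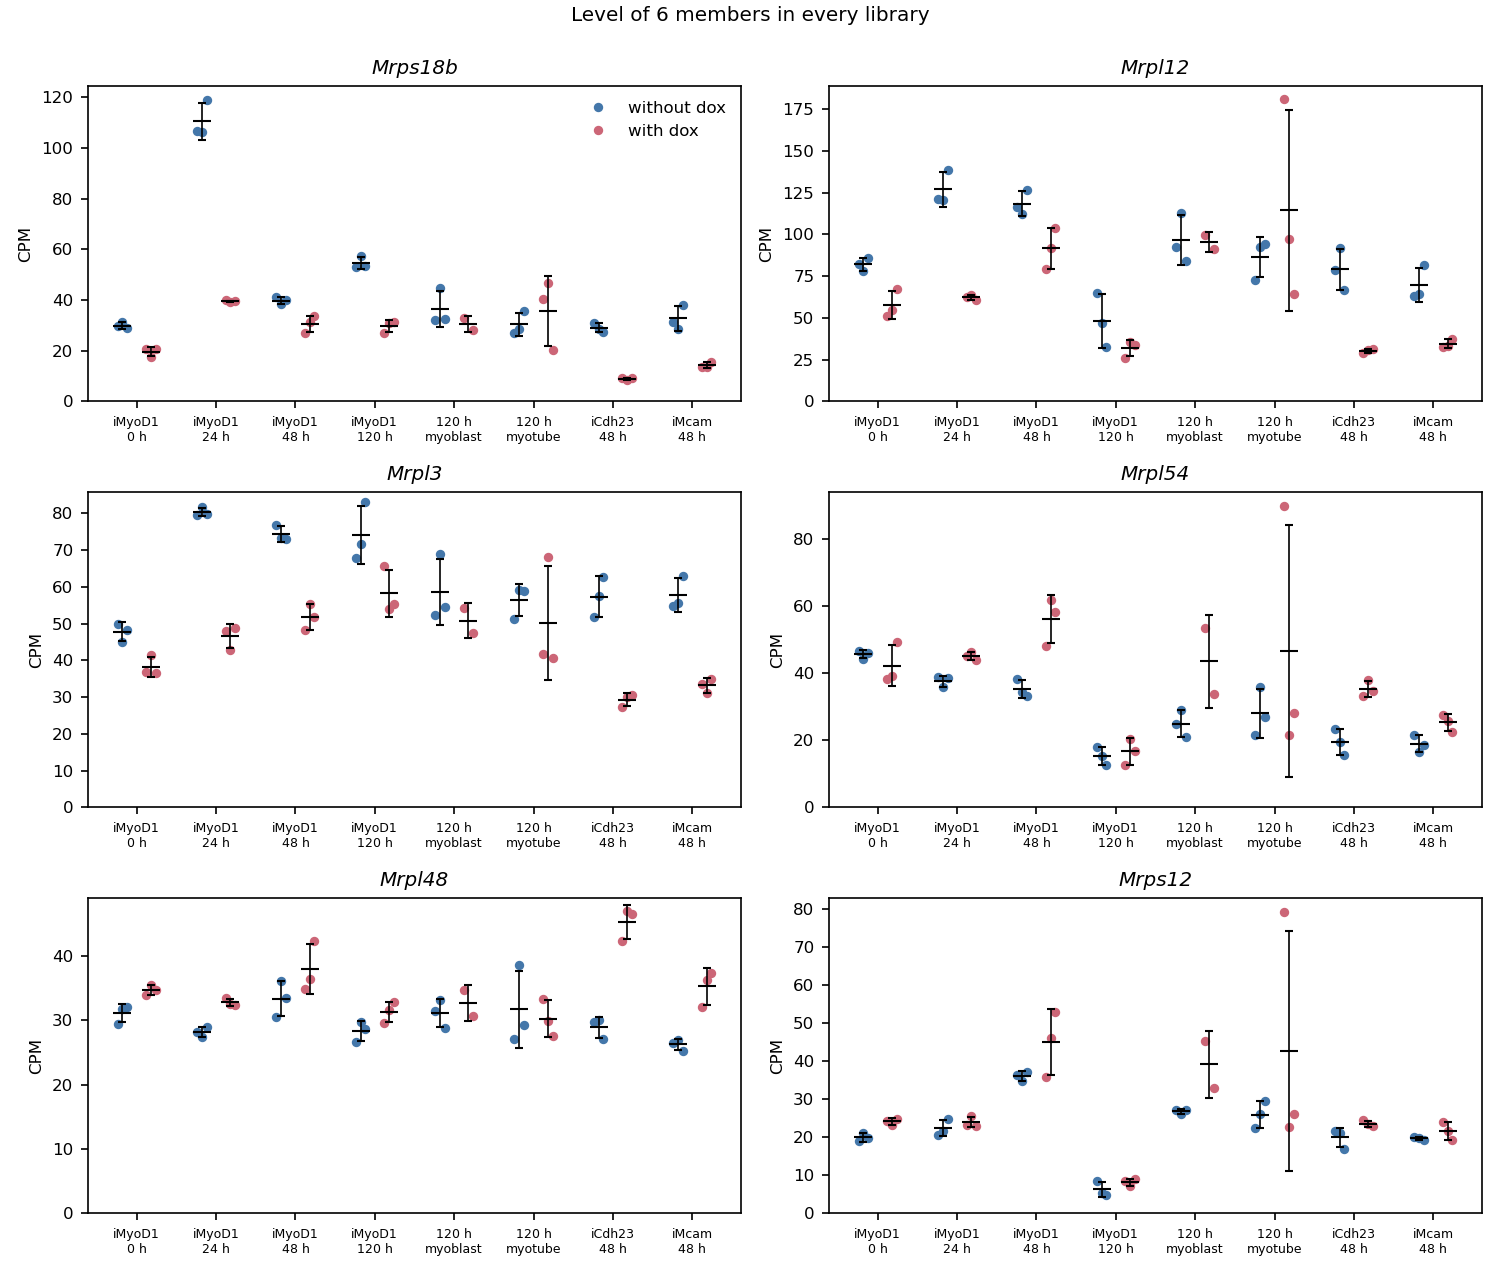
Level of 6 members in every library (CPM) for the 8 pairs of groups, without dox in blue and with dox in red, where points are libraries, bars show the mean ± SD, and 120 h myoblast and myotube mean the enriched fractions. Mrps18b, Mrpl12 and Mrpl3 lie lower with dox in the whole cultures at 24 h and in iCdh23 and iMcam, where Mrpl54 and Mrpl48 lie higher.

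Proliferating cells at 0 h showed a smaller shift. With dox, 28 members were lower and 1 was higher, with a median of −0.16 against 0.00 for all 13550 genes, of which 18.7% were lower and 19.1% higher. The split was 17 lower and 6 higher with the total count alone, where 1496 of all genes were lower and 4159 higher. Mrps18b held 20.6, 17.6 and 20.6 CPM with dox and 29.6, 31.4 and 28.8 CPM without (−0.60 ± 0.08, adjusted p = 6.9e-05). Mrpl52 (−0.51 ± 0.07, adjusted p = 3.7e-05) and Mrpl55 (−0.51 ± 0.13, adjusted p = 0.0058), both large-subunit proteins, followed. Mrps12 was the member that was higher, at 24.3, 23.3 and 24.9 CPM against 19.0, 21.3 and 19.7 CPM (0.28 ± 0.08, adjusted p = 0.011). When all 16 groups were fitted together, which gives 1 common estimate of the spread, the 0 h effect kept only Mrps18b among the members, with 1 lower and 0 higher. Calls over all genes fell too, from 2530 lower and 2592 higher to 314 and 514.

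The dox effect at 24 h differed from that at 0 h for 31 members, by the interaction term of a fit over these 4 groups. It was more negative at 24 h for 30 and more positive for 1. The median difference was −0.23, against −0.05 over all 14448 genes tested, of which 20.7% had a more negative and 13.3% a more positive effect. The split was 14 and 6 with the total count alone, where 1440 of all genes had a more negative and 3903 a more positive effect. Mrps18b differed by −0.91 ± 0.10 (adjusted p = 2e-06), Mrps27 by −0.67 ± 0.12 (adjusted p = 0.00032) and Mrps30 by −0.65 ± 0.12 (adjusted p = 0.00048), whereas Mrpl54 had the more positive effect (0.35 ± 0.11, adjusted p = 0.025). Mrps27 held 21.5 to 24.4 CPM at 24 h with dox and 37.5 to 43.5 CPM without.

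At 48 h in iMyoD1 cells the members split, and markers of myotubes and of proliferating cells were lower too. With dox, 26 were lower and 7 higher, with a median of −0.12 that turned to 0.02 with the total count alone (15 lower, 18 higher), against 0.01 and 0.15 for all 13871 genes. Of all genes, 28.7% were lower and 27.9% higher, so that the members' share of lower calls (33.3%) was near the background. Without replicate 1 of the dox group, 24 members were lower and 18 higher, with a median of −0.01. Mrps22, a small-subunit protein, held 19.6, 21.6 and 20.9 CPM with dox against 32.3, 30.3 and 30.5 CPM (−0.59 ± 0.07, adjusted p = 6.7e-05). Mrpl3, the homologue of bacterial L3, held 48.2, 55.4 and 51.7 CPM against 76.9, 73.5 and 73.0 CPM (−0.53 ± 0.07, adjusted p = 9e-05), and Mrpl15 changed by −0.45 ± 0.08 (adjusted p = 0.00056). Mrpl54 was higher, at 47.9, 61.7 and 58.3 CPM against 38.1, 34.3 and 33.0 CPM (0.67 ± 0.10, adjusted p = 0.00024), as were Mrpl27 (0.38 ± 0.10, adjusted p = 0.0071) and Mrpl57 (0.38 ± 0.09, adjusted p = 0.0051). With all 16 groups in 1 fit, 7 members were lower and 0 higher, and none of these 3 higher calls held. Over all genes, that fit called 2342 lower and 2461 higher, against 3980 and 3866 in the main fit. Mrpl3, Mrps22 and Mrpl54 did not overlap between the groups, but they were named for the most extreme called changes. No such share of all genes is given here.

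In whole cultures at 120 h, 26 members were lower with dox and 4 higher, with a median of −0.25 against 0.00 for all 13628 genes, of which 23.7% were lower and 21.4% higher. Under total-count scaling, 10 were lower and 7 higher, beside 2176 lower and 4506 higher of all genes. Without replicate 2 of the group without dox, 17 were lower, beside 2478 of all genes. Mrpl55 held 2.48, 4.26 and 5.29 CPM with dox against 9.29, 8.09 and 5.97 CPM (−0.97 ± 0.30, adjusted p = 0.025), a call that held in 8 of 14 alternatives and was lost with the total count, with the replicate block and without replicate 1 or replicate 2 of either group. Mrps18b held 26.8, 31.1 and 31.2 CPM against 53.0, 57.5 and 53.4 CPM (−0.89 ± 0.11, adjusted p = 0.00017), and Mrps23 fell by 0.75 ± 0.13 on the log2 scale (adjusted p = 0.0012). The member that rose most was Mrps36, the dehydrogenase subunit, at 18.5, 22.1 and 22.1 CPM against 8.31, 12.6 and 10.5 CPM (0.99 ± 0.17, adjusted p = 0.0015). Mrps6 (0.66 ± 0.12, adjusted p = 0.0022) and Mrps25 (0.56 ± 0.16, adjusted p = 0.018) were also higher. Mrps6 shares an exon and strand with Slc5a3 (21.3 to 77.7 CPM in the group means) and Mrps25 lies opposite Nr2c2, so that their counts are uncertain.

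The 2 fractions at 120 h showed no called member in the main edgeR fit. In the myoblast-enriched fraction, 9 members had an unadjusted p under 0.05 and 0 passed the adjustment, with a median of 0.01 that ranged from −0.15 to 0.14 when 1 library was left out. Of all 14249 genes, 2.52% were lower and 1.82% higher. DESeq2 called 1 member higher and 0 lower, as did edgeR without the filter on low counts. With the replicate number as a block, edgeR called 8 members higher and 7 lower, beside 1980 higher and 2071 lower of all genes. This block rests on 2 same-numbered pairs (correlations 0.431 and 0.3). In the myotube-enriched fraction, 0 members passed in either direction by edgeR or by DESeq2, 0 had an unadjusted p under 0.05, and 0% of all 14112 genes were called either way. The median there was 0.29, and it was −0.06 without replicate 1 of the dox group. In that replicate Mrpl52 stood at 146 CPM against 44.4 and 37.1 CPM in the other dox replicates, and Mrps12 at 79.3 CPM against 22.8 and 26.1 CPM. The dox effect was called different between the fractions for 0 members, 0 of them at an unadjusted p under 0.05, and for 0% of 15008 genes in either direction, and the spread of these libraries limits what could be detected. Between the fractions without dox, 0 of 78 members differed in either direction by edgeR, with a median of −0.03, while 0.578% of 14023 genes were higher and 0.0143% lower in the myotube-enriched fraction. Same-numbered libraries deviated together here, and with the replicate number as a block 0 members differed while 444 genes were higher and 232 lower.

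**Figure D4:**
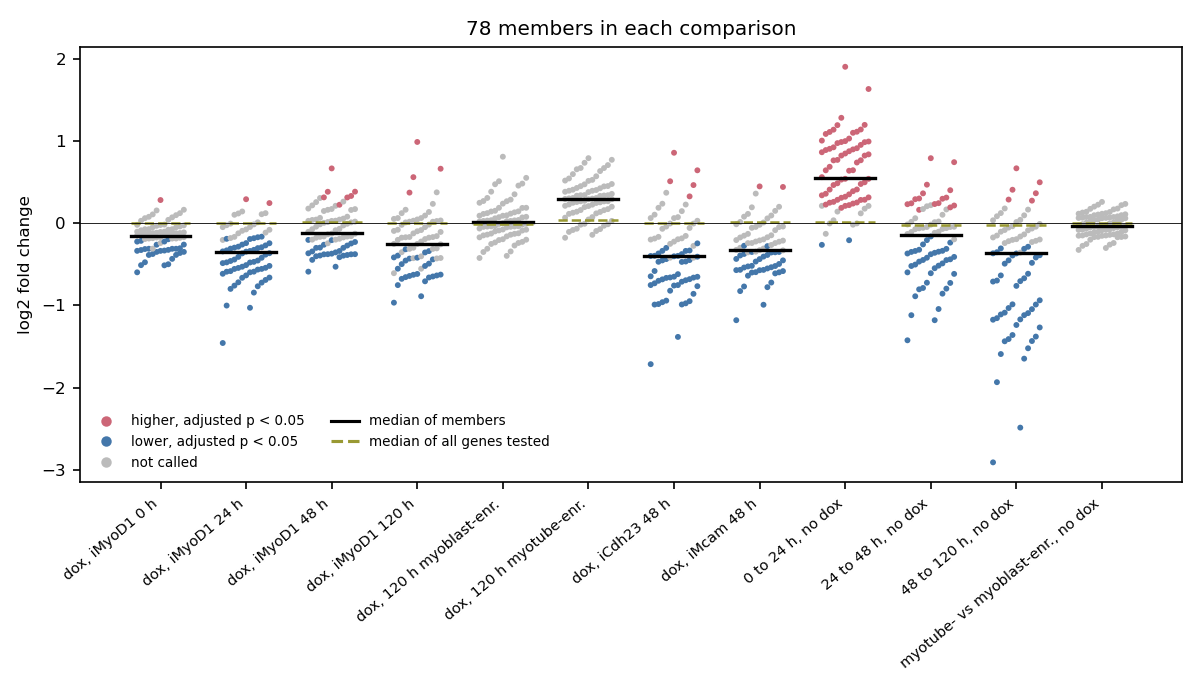
Log2 fold changes of the 78 members in the 12 pairwise comparisons, where each point is a member, red where higher and blue where lower (adjusted p < 0.05), with the median of the members as a black line and that of all genes tested as a dashed line. The members lie mostly above 0 from 0 to 24 h and mostly below it with dox in iMyoD1 at 24 h, iCdh23 and iMcam, and no member is coloured in the comparisons of fractions.

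In iCdh23 cells at 48 h, 47 members were lower with dox and 5 higher, with a median of −0.40 against 0.00 over all 14227 genes, of which 32.4% were lower and 31.3% higher. Here the scaling matters: the members' share of all counts was 0.233 to 0.257% with dox and 0.234 to 0.257% without, so the summed share did not move. With the total count alone, 26 members were lower and 18 higher and the median of all genes was 0.33, a shift common to all genes that turned the sign of 2 of the 52 called members. Mrps18b fell from 31.0, 28.7 and 27.4 CPM to 9.02, 8.40 and 9.20 CPM (−1.71 ± 0.10, adjusted p = 1.2e-05) and Mrpl12 from 78.6, 91.6 and 66.7 CPM to 29.0, 31.0 and 31.1 CPM (−1.38 ± 0.12, adjusted p = 5.6e-05). Mrps30, which sits in the large subunit, was lower by 0.99 ± 0.11 on the log2 scale, at 16.4 to 17.97 CPM against 29.9 to 37.7 CPM (adjusted p = 0.00021). Mrpl54 rose from 23.3, 19.3 and 15.7 CPM to 33.1, 38.0 and 34.6 CPM (0.86 ± 0.15, adjusted p = 0.0016), Mrpl48 from 27.0 to 30.1 CPM to 42.2 to 46.96 CPM (0.64 ± 0.09, adjusted p = 0.00046), and Mrpl27 by 0.51 ± 0.17 with overlapping groups (adjusted p = 0.035).

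In iMcam cells at 48 h, 37 members were lower with dox and 2 higher, with a median of −0.33 against 0.02 over all 13730 genes, of which 24.8% were lower and 24.2% higher. The split was 17 lower and 7 higher with the total count alone, beside 2392 lower and 5023 higher of all genes. Without replicate 2 of the dox group 22 members were lower, beside 2436 of all genes. Mrps18b held 13.7, 13.4 and 15.7 CPM with dox against 31.4, 28.6 and 38.2 CPM (−1.18 ± 0.13, adjusted p = 0.00056). Mrpl12 held 32.8, 33.2 and 37.5 CPM against 63.0, 64.2 and 81.5 CPM (−0.99 ± 0.12, adjusted p = 0.00078), and Mrps22 was lower by 0.83 ± 0.15 on the log2 scale (adjusted p = 0.0033). Mrpl48 (0.45 ± 0.10, adjusted p = 0.0072) and Mrpl54 (0.44 ± 0.13, adjusted p = 0.028) were higher. None of these 5 members overlapped between the groups, but they were named for the most extreme called changes. The share of all genes without overlap is not given here.

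Cell markers differed with dox in all 6 whole-culture comparisons. All 10 myotube markers were lower in iCdh23 with dox (median log2 fold change, −6.39), with a summed level of 41.9 to 146 CPM with dox and 5912 to 10546 CPM without, and Myh8 was under 1 CPM with dox. Of the 10, 9 were lower in iMcam with dox (570.5 to 1809 CPM against 4314 to 10657 CPM). All 8 markers of proliferating myoblasts were lower too, at 78.1 to 97.5 CPM against 963 to 1187 CPM in iCdh23 and 129 to 193 CPM against 838 to 1006 CPM in iMcam. At 24 h in iMyoD1 cells, where 57 members were lower, the summed myotube markers were 14.5 to 16.2 CPM with dox and 14.99 to 16.8 CPM without, but 5 of the 8 proliferating markers were lower and 1 higher (summed level, 880 to 922 CPM against 988 to 1025 CPM, no overlap). Of 4 myoblast markers at 24 h, 2 were higher and 2 lower (median, 0.12), with the extremes at Pax7 (0.98) and Myf5 (−2.96). At 0 h 6 of the 8 proliferating markers were lower (2541 to 2653 CPM against 2942 to 2975 CPM), as was Myf5 among the myoblast markers (−0.999), of which 1 was higher. Of the 3 myotube markers that could be tested at 0 h, 2 were higher (median, 1.01), at a summed level of 4.78 to 5.89 CPM with dox against 1.70 to 2.81 CPM without. At 48 h in iMyoD1 all 10 myotube markers were lower (median, −1.22), at 6009 to 6114 CPM against 14724 to 16085 CPM, and so were all 8 proliferating markers (−1.52), at 514 to 535 CPM against 1399.6 to 1453 CPM. At 120 h 7 myotube markers were lower and 1 higher (−0.52), at 12304 to 14339 CPM against 17874 to 21107 CPM, while 6 proliferating markers were higher and 1 lower (0.68), at 491 to 558 CPM against 307 to 337 CPM. Of the 4 myoblast markers, 3 were lower and 1 higher at 48 h in iMyoD1 (median, −0.42), at 1361 to 1467 CPM against 1911 to 2075 CPM, and 1 was lower and 1 higher at 120 h (−0.32). In iCdh23 3 of them were lower and 0 higher (−2.27), at 303 to 353 CPM against 1367 to 1572 CPM, as were 3 in iMcam (−1.20), at 419.7 to 626 CPM against 1058 to 1627 CPM. The part of cell composition in the members' changes was not tested.

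Dox effects at 48 h were then compared between lines by interaction terms. In iCdh23 against iMyoD1, 23 members differed: the effect was more negative in iCdh23 for 22 and more positive for 1, with a median difference of −0.28 against −0.05 over all genes. Of 14825 genes tested, 21.6% were more negative and 14.2% more positive. With the total count alone the split was 11 and 4, beside 2473 and 3413 of all genes. Without replicate 1 of iMyoD1 with dox the split was 35 and 1, beside 3376 and 2115 of all genes. Mrps18b differed by −1.31 ± 0.13 (adjusted p = 9.2e-06), Mrpl12 by −0.99 ± 0.17 (adjusted p = 0.00063) and Mrpl55 by −0.83 ± 0.18 (adjusted p = 0.0033), whereas Mrpl48 had the more positive effect (0.48 ± 0.14, adjusted p = 0.014). In iMcam against iMyoD1, 2 members differed, both more negative in iMcam: Mrps18b by −0.80 ± 0.17 (adjusted p = 0.015) and Mrpl12 by −0.62 ± 0.17 (adjusted p = 0.046). Of 14488 genes tested, 4.06% were more negative and 2.35% more positive. Without replicate 1 of iMyoD1 with dox the count was 11, and in the other leave-one-out fits it was 1 to 3. The lines lie in different deposited tables, and each effect was taken within its own table.

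**Figure D5:**
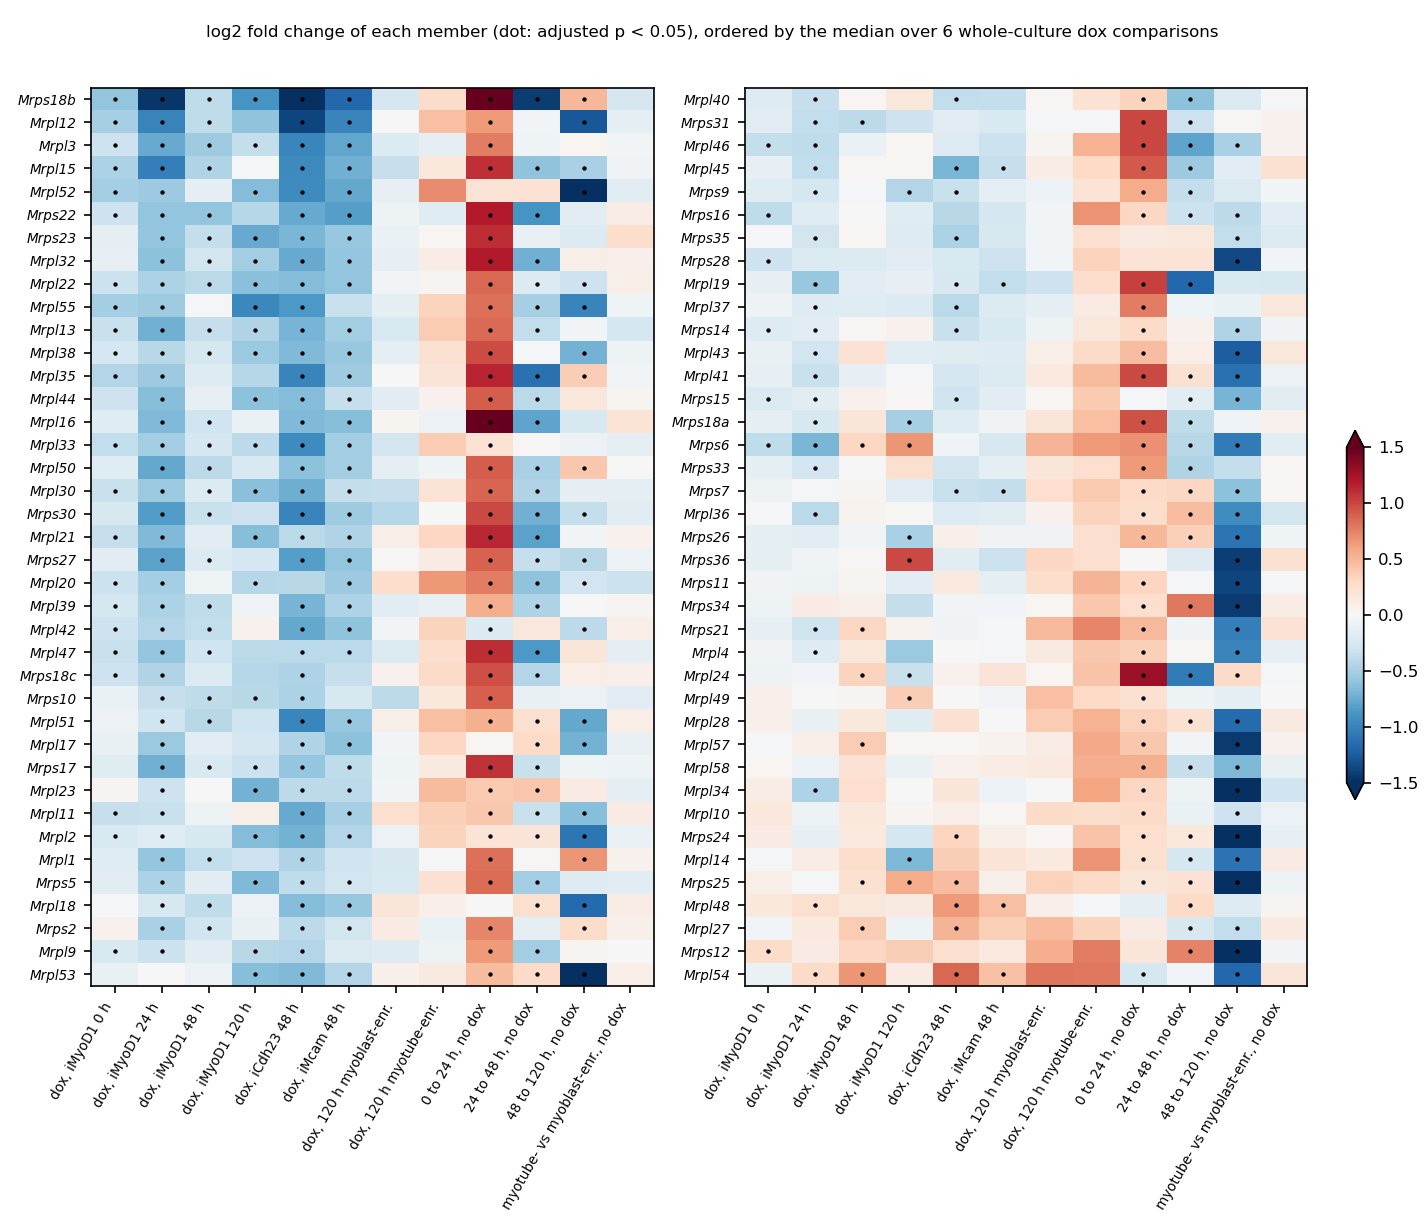
Log2 fold change of each of the 78 members (rows) in the 12 pairwise comparisons (columns), with a dot where the adjusted p was under 0.05 and colours capped at ±1.5, and rows are ordered by the median over the 6 whole-culture dox comparisons. Mrps18b, Mrpl12 and Mrpl3 are at one end of the order and Mrpl54, Mrps12 and Mrpl27 at the other.

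Across the 8 dox comparisons, 64 members (82.1%) were lower at least once and 12 (15.4%) were higher at least once, against 57.9% and 57.6% of 12143 genes tested in all 8. Mrps6, Mrps21 and Mrpl24 were both, and 5 members (6.41%) were called in none (Mrps11, Mrps34, Mrpl28, Mrpl58 and Mrpl10), against 21.6% and 6.1% of all genes. No member was lower in more than 6 comparisons. The 7 that were lower in 6, in each case all whole-culture comparisons, were Mrps18b, Mrpl3, Mrpl13, Mrpl22, Mrpl30, Mrpl33 and Mrpl38, and 4.33% of 12166 genes tested in those comparisons were lower in all 6. Some of these calls were fragile: of 14 alternatives, the 48 h calls of Mrpl30 and Mrpl33 held in 5, and the 120 h calls of Mrpl3, Mrpl33 and Mrpl38 in 6, 7 and 8. At 0 h, the log2 fold change of Mrpl3 was −0.09 over its protein-coding transcripts alone, which hold 27.2% of its counts. The calls of Mrps18b held in all 14 in 5 of the comparisons, and its 48 h call was lost in the fit of all 16 groups. Mrpl13 held 89.7 to 90.3 CPM with dox at 24 h against 137 to 170 CPM, and 41.0 to 52.1 CPM in iCdh23 with dox against 64.9 to 92.3 CPM. Its exons overlap those of Mtbp on the opposite strand, whose group mean fell with it, from 81.4 to 50 CPM at 24 h and from 38.51 to 9.25 CPM in iCdh23, so that its counts are uncertain. Mrpl54 was higher in 4, more than any other member, but its calls at 24 h, at 48 h in iMyoD1 and in iMcam were lost in the fit of all 16 groups, and that in iMcam held in 9 of 14 alternatives, lost also without replicate 2 or 3 of the group without dox and without replicate 1 or 2 of the dox group. Over the 6 whole-culture comparisons, 41 members (52.6%) had a negative log2 fold change in each, against 16.3% of all genes, and Mrpl48 and Mrps12 had a positive one in each, against 18.3% of all genes. The order of the members was also alike between pairs of comparisons, none of which share a library: Spearman's rho over the 78 members was 0.35 to 0.89 (median of 15 pairs, 0.65), and over all genes 0.33 to 0.89 (median, 0.54). The highest was between iCdh23 and iMcam (0.89 over the members and over all genes).

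By place in the ribosome, the 3 S18 paralogs all fell at 24 h with dox (as did 31.7% of all genes), Mrps18b the most, Mrps18c by 0.45 ± 0.08 (adjusted p = 0.00047) and Mrps18a by 0.24 ± 0.06 (adjusted p = 0.0054). All 3 also rose from 0 to 24 h without dox, where 37.3% of all genes rose, Mrps18c by 0.97 ± 0.09 and Mrps18a by 0.95 ± 0.08. In iCdh23, Mrps18a had −0.19 ± 0.11 and did not pass (adjusted p = 0.17), and Mrps18c was lower by 0.47 ± 0.11 (adjusted p = 0.0068). The paralogs share a family but are separate genes, and Mrps18b was the only one with a change above 1 on the log2 scale with dox.

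The 5 stalk and stalk-base genes were split: at 24 h with dox Mrpl12 and Mrpl11 (−0.34 ± 0.09, adjusted p = 0.0051) were lower, Mrpl54 was higher, and Mrpl10 (−0.08 ± 0.05) and Mrpl53 (−0.01 ± 0.07) did not pass. In iCdh23 Mrpl12, Mrpl11 (−0.76 ± 0.12, adjusted p = 0.0013) and Mrpl53 (−0.66 ± 0.11, adjusted p = 0.0015) were lower and Mrpl54 higher. Mrpl10, which anchors copies of Mrpl12 on the ribosome, was called in no dox comparison, with log2 fold changes of −0.08 to 0.16 in the whole cultures. Around the exit tunnel, where the nascent chain leaves toward the inner membrane, 5 of 6 genes (Mrpl17, Mrpl22, Mrpl23, Mrpl45 and Mrpl47) were lower at 24 h, by log2 fold changes of −0.60 to −0.31, and 5 of 6 in iCdh23 and in iMcam, against 31.7, 32.4 and 24.8% of all genes lower in these comparisons, while Mrpl24 had −0.05 ± 0.07 at 24 h.

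Of all genes, 31.7% were lower and 31.1% higher at 24 h with dox, and 32.4 and 31.3% in iCdh23. In the central protuberance, 5 of 7 genes were lower at 24 h (Mrpl18, Mrpl38, Mrpl40, Mrpl46 and Mrpl55), Mrpl48 was higher and Mrpl27 did not pass (0.14 ± 0.08, adjusted p = 0.16). In iCdh23, 4 were lower and 2, Mrpl27 and Mrpl48, were higher. Of the 2 decoding-site genes, Mrps5 was lower at 24 h (−0.47 ± 0.06, adjusted p = 2.7e-05) and at 120 h (−0.66 ± 0.12, adjusted p = 0.0022), and Mrps12 was not called in those. By evolutionary class at 24 h, 25 of 30 large-subunit proteins with a bacterial homologue were lower and 0 higher (median, −0.51), against 15 lower and 2 higher of 21 mitochondria-specific large-subunit proteins (−0.33). In the small subunit, 10 of 16 with a bacterial homologue (−0.23) and 7 of 10 mitochondria-specific ones (−0.33) were lower. By symbol, 38 of 49 Mrpl genes were lower and 2 higher (median, −0.41), and 19 of 29 Mrps genes were lower (−0.27), and no test was made of the difference between these groups.

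Other genes of mitochondrial gene expression were examined by list at 24 h with dox, where 31.7% of all genes were lower and 31.1% higher. Of 5 mitoribosomal proteins without an Mrp symbol, 4 were lower at 24 h with dox. Ptcd3 was lower by 1.09 ± 0.05 on the log2 scale, while Dap3, a GTP-binding small-subunit protein, had 0.01 ± 0.06 and did not pass. Among 23 assembly factors, 15 were lower and 1 higher (median, −0.36), from Mrm3, an rRNA methyltransferase (−1.14), to Nsun4 (0.43). Among 14 translation factors, 9 were lower and 1 higher (−0.29), including Lrpprc (−0.88 ± 0.05), which stabilizes mitochondrial mRNAs, and Tufm (−0.64 ± 0.05), the elongation factor. Of 17 aminoacyl-tRNA synthetases, 8 were lower and 2 higher (−0.38). Of 10 regulators of mitochondrial biogenesis, 7 were lower and 1 higher (−0.48): Pprc1 by 0.93 ± 0.07, Tfam by 0.69 ± 0.05, Nrf1 by 0.59 ± 0.06 and Yy1 by 0.36 ± 0.06 lower on the log2 scale, and Esrra higher by 0.64 ± 0.07.

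Of the 13 mRNAs that this ribosome translates, 4 were lower and 1 higher at 24 h with dox (median, −0.17), a share of lower calls near that of all genes (31.7%), at 48 h 1 was lower and 5 higher (0.16), beside 28.7 and 27.9% of all genes, and in iCdh23 1 was lower and 0 higher (0.19), beside 32.4 and 31.3%. At 0 h mt-Atp8 and mt-Co1 were lower and mt-Nd2 and mt-Nd3 higher, beside 18.7 and 19.1% of all genes. In iMcam mt-Nd1 alone passed and was lower. At 120 h in whole cultures the 13 mRNAs summed to 58517 to 68049 CPM with dox and 40388 to 58866 CPM without. Libraries were made from poly(A) RNA, which these short-tailed transcripts enter unevenly. From 0 to 24 h without dox 8 of 13 rose and 0 fell (0.26), beside 20 of 23 assembly factors, 12 of 14 translation factors and 10 of 17 synthetases that rose. In a list of ATF4 targets and mitochondrial stress genes, 18 of 21 were lower with dox at 0 h (median, −0.41), where 18.7% of all genes were lower. At 24 h 21 of 22 were lower (−0.62), against 31.7% of all genes, at 48 h 18 of 22 (−1.03), against 28.7%, and at 120 h 20 of 22 (−2.19), against 23.7%. In iCdh23 15 of 22 were lower (−1.62), against 32.4%, and in iMcam 13 of 22 were lower and 1 higher (−0.71), against 24.8 and 24.2%. All 22 rose from 0 to 24 h without dox (2.07), where 37.3% of all genes rose.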

How the data were processed

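Poly(A) RNA-seq of 47 libraries in 16 groups was analysed from 3 deposited transcript tables (0 and 24 h, 48 and 120 h, and the remaining groups). The authors ran nf-core/rnaseq with Salmon on mm10 and deposited estimated counts per transcript, pooled over no replicates. The annotation is not given in the sources used here, and 98.72% of 109617 transcripts matched GENCODE vM21. The kit is not stated to keep strand, so reads of 28 members with an exon overlapped on the opposite strand cannot be told apart from their neighbours'.

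Transcripts were summed per gene and rounded. Each comparison was fitted on its own groups with edgeR 4.0.16 in R 4.3.3 (filterByExpr, TMM factors, quasi-likelihood test), and p-values were adjusted by the Benjamini-Hochberg method over all genes tested, with a threshold of 0.05. DESeq2 1.42.0, other scalings, no filter, 1 fit for all groups, a replicate block, left-out libraries, only protein-coding transcripts and members without opposite-strand overlap were alternatives. The steps were tested on simulated data. The p-values measure the spread between the 2 or 3 replicates labelled biological. TPM was computed here from the counts and the annotated transcript lengths.

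The members, gene lists and tests were chosen with earlier results of these data known, and motifs after gene values were seen. Members named were the 3 largest and 3 smallest log2 fold changes among those called in each comparison, the genes of 5 role lists, the 3 highest and 3 lowest levels, and those called in most dox comparisons in the same direction, where 7 tied and all were named. Other genes named were chosen after their values were seen. Same-numbered replicates deviated together in every pair in iMcam (correlation 0.227 to 0.419) and between fractions without dox (0.117 to 0.413), and the block moved no count of member calls there by over 1.5 times.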

Additional observations from a re-analysis of the deposited data

Results flagged for a closer look

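The dox effect differed between groups under the same contrast, by interaction terms of the edgeR fit, for some members in 3 of 4 such comparisons, and for 0 members between the fractions. Between 24 and 0 h, 31 members differed, 30 with a more negative effect at 24 h, and Mrps18b differed by −0.91 ± 0.10 on the log2 scale. Of all genes, 20.7% had a more negative and 13.3% a more positive effect at 24 h. With the total count alone the members split into 14 and 6, beside 1440 and 3903 of all genes. Between iCdh23 and iMyoD1 at 48 h, 23 members differed, 22 with a more negative effect in iCdh23, against 21.6% of all genes more negative and 14.2% more positive. The split was 11 and 4 with the total count alone, beside 2473 and 3413 of all genes. Between iMcam and iMyoD1 at 48 h, 2 members differed, Mrps18b and Mrpl12, both with a more negative effect in iMcam, a share (2.56%) below that of all genes (4.06%). Leaving out 1 library gave 1 to 11 such members: 11 without replicate 1 of iMyoD1 with dox, and 1 in 8 of the 12 fits. The difference of Mrpl12 held in 10 of 18 alternatives, and that of Mrps18b in all 18.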

How the results depend on the processing

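The members' median less that of all genes kept its sign under every alternative in the 6 whole-culture dox effects, the 3 time steps and the differences between 24 and 0 h, iCdh23 and iMyoD1, and iMcam and iMyoD1, which for the scaling alternatives follows from their construction, since they shift all genes alike, while counts of calls moved. With the total count alone, members called higher and lower were 6 and 17 at 0 h, 16 and 34 at 24 h, 18 and 15 at 48 h, 7 and 10 at 120 h, 18 and 26 in iCdh23 and 7 and 17 in iMcam, 4 were lower from 0 to 24 h, 10 higher from 24 to 48 h and 3 higher from 48 to 120 h, and the differences of dox effects numbered 20 (24 less 0 h) and 15 (iCdh23). With all 16 groups in 1 fit, 0 were higher and 1 lower at 0 h, 0 and 34 at 24 h, 0 and 7 at 48 h, 1 higher in iMcam, 0 lower from 0 to 24 h, 4 higher from 24 to 48 h and 3 higher from 48 to 120 h. Upper-quartile factors gave 5 higher at 24 h, 2 higher from 48 to 120 h, and 20 (24 less 0 h) and 4 (iMcam) differences. Without the filter, 11 were higher at 48 h, 1 in the myoblast-enriched fraction, and 5 differed in iMcam. DESeq2 called 1 higher in the myoblast-enriched fraction and 4 differences in iMcam. Only protein-coding transcripts gave 2 higher at 0 h. Without members overlapped on the opposite strand, over fewer members, 1 was higher at 0 h, 2 in iCdh23, 2 were lower from 0 to 24 h and 0 differed in iMcam. By the longest transcript, 6 of the 10 highest levels were shared. Calls over all genes moved as well. At 0 h, 2592 were higher and 2530 lower in the main fit, and 4159 and 1496 with the total count alone. With all 16 groups in 1 fit, 514 were higher and 314 lower. The cause of these moves was not tested.

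The replicate block called 8 members higher and 7 lower with dox in the myoblast-enriched fraction, beside 1980 higher and 2071 lower of all genes. The 2 pairs of this fraction share only a number by the rule used (correlations 0.431 and 0.3). The block moved no other count of member calls by over 1.5 times. Leaving out 1 library gave 0 to 2 members higher at 0 h, 2 to 5 at 24 h (5 without replicate 3 without dox), 3 to 18 at 48 h, 3 to 7 in iCdh23, 1 to 2 in iMcam and 2 to 6 from 48 to 120 h. Members lower were 17 to 32 at 120 h, 22 to 36 in iMcam and 1 to 2 from 0 to 24 h, and differences were 19 to 36 in iCdh23 and 1 to 11 in iMcam. Where 1 myoblast-enriched dox library remained, it was assumed to vary like the others.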
